A study of Mus musculus with 24 samples.

Results

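The genes described here are 9 receptors of the TNF receptor family and the ligand of CD40, 10 of the 22009 named genes of the deposited table: Tnfrsf4 (OX40), Tnfrsf9 (4-1BB), Tnfrsf18 (GITR), Tnfrsf1a and Tnfrsf1b (the receptors of TNF), Tnfrsf8 (CD30), Tnfrsf25 (DR3), Cd27, Fas and Cd40lg. They were chosen by name, with earlier results of these data known. All 10 had a row and passed the filter on low values. Counts of members set beside shares of all genes thus describe these genes and test nothing about the family. CD4+ T cells were purified by negative selection from spleens of adult wildtype C57BL/6 mice that were pooled, and every library came from this genotype, with no mutant or transgene. RNA was sequenced from 2 libraries of resting cells and, at 4, 8, 12, 16, 20 and 24 h, from a single library of each culture condition, Th0, Th1 or Th2. All cultures were activated with plate-bound anti-CD3 and soluble anti-CD28. Th0 cultures had nothing more, Th1 cultures also had anti-IL-4 and IL-12, and Th2 cultures IL-4 with antibodies to IL-12 and IFN-γ. A further 4 libraries belong to cells that, 16 h into stimulation, received actinomycin, an inhibitor of transcription, for 0, 1, 2 or 4 h. The labels do not give their skewing condition. Expression is given in RPKM, read counts scaled to transcript length and to the reads mapped in a library, as the authors deposited it.

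Receptors of this family bind trimeric ligands and pass the signal through TRAF adaptors, which lead to NF-κB and MAP kinases, or, where the receptor carries a death domain, through FADD or TRADD to caspases. OX40, 4-1BB, GITR and CD30 are known as costimulatory receptors that T cells display after antigen has been seen, whereas CD27 is present on naive T cells. Fas, the TNF receptor encoded by Tnfrsf1a and DR3 have death domains. CD40 ligand on activated helper T cells binds CD40 on B cells, dendritic cells and macrophages.

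Most of these genes lie close to relatives (GRCm38, GENCODE vM21). 6 of the 10 are on chromosome 4: Tnfrsf1b at chr4:145213463-145246870 and Tnfrsf8 at chr4:145267137-145315164, 20.3 kb apart; Tnfrsf9 at chr4:150914562-150946102; Tnfrsf25 at chr4:152115934-152120119; and Tnfrsf4 at chr4:156013843-156016612 with Tnfrsf18 at chr4:156026164-156028895, 9.55 kb apart. Cd27 at chr6:125232622-125237010 and Tnfrsf1a at chr6:125349362-125362484 are on chromosome 6, Fas at chr19:34290666-34327772 on chromosome 19 and Cd40lg at chrX:57212143-57224042 on the X chromosome. Some members share their place with a gene on the opposite strand. Cd27 lies whole within the span of Vamp1 (7.63 to 19.1 RPKM in the cultures), Tnfrsf9 overlaps Camta1 (4.79 to 9.60 RPKM) and Tnfrsf18 overlaps the antisense gene Gm16008. The sources used here do not say whether reads were counted by strand, so these pairs cannot be told apart.

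The 250 bases before the RefSeq starts of 9 members (11 starts, GRCm38.p6) were searched on both strands for a consensus site of NF-κB and for TGANTCA, a site of the AP-1 family; T cell activation is known to induce both factors. Cd40lg had no entry. At least 1 match was present in 4 members (Tnfrsf8, Tnfrsf9, Tnfrsf25 and Fas), and 7 of the 11 stretches had none. Of all 32851 RefSeq promoters of the same length, 7.25% held the NF-κB consensus, 6.75% held TGANTCA and 0.356% held both. Tnfrsf8 and the second start of Tnfrsf9, both members whose expression rose as described below, held both. Tnfrsf4, Tnfrsf18 and Tnfrsf1b, which also rose, had no match. Of the 250 bases searched, 166 lay in annotated exons of Sdf4 for Tnfrsf4. For Tnfrsf18, 158 lay in exons of Gm16008 or of Tnfrsf18 itself. Tnfrsf25, which was not called at any time point, held the NF-κB consensus, and Fas held only TGANTCA. Printed here are the 250 bases of Tnfrsf8 (minus strand, chr4:145315165-145315414), Fas (plus strand, chr19:34290409-34290658) and Tnfrsf1b (minus strand, chr4:145246871-145247120), and 30 bases with the NF-κB match of Tnfrsf9 (plus strand, chr4:150927946-150927975), which lie in an exon of another annotated Tnfrsf9 transcript. Capitals mark the matches, which begin 168 bases (NF-κB) and 132 bases (TGANTCA) before the start in Tnfrsf8, 211 bases before it in Fas and 43 bases before it in Tnfrsf9. In Tnfrsf8 and Tnfrsf9 the marked NF-κB stretch holds 2 overlapping matches.
Tnfrsf8: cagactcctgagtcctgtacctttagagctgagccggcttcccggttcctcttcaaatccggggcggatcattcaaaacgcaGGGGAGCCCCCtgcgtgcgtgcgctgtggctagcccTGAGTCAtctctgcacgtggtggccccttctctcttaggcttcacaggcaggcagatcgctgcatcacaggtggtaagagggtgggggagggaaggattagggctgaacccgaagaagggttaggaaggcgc
Fas: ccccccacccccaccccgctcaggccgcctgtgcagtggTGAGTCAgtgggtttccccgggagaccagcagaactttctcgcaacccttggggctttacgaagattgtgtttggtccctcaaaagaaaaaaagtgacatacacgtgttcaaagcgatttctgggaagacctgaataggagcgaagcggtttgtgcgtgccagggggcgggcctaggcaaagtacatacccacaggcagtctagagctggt
Tnfrsf1b: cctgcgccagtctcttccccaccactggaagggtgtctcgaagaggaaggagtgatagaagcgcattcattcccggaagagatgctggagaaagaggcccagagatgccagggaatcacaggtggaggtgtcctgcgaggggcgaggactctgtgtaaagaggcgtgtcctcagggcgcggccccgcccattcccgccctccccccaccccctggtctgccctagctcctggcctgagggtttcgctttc
Tnfrsf9: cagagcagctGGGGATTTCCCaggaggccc

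The libraries held between 17512385 and 33017133 mapped reads in the time course and between 18052931 and 25735543 in the actinomycin series, recovered from the steps of the RPKM values. T cell markers were high throughout (6 of 6 detected, summed 1845 to 1873 RPKM at rest and 1151 to 1257 RPKM at 24 h). The resting libraries also held markers of other cells, which fell with time in culture: red cells and their precursors (4 genes, 9565 to 10654 RPKM at rest, 35.3 to 52.7 RPKM at 24 h), macrophages and monocytes (8 genes, 449 to 469 against 6.89 to 10.5 RPKM), B cells (8 genes, 72.6 to 82.6 against 10.2 to 19.1 RPKM), NK cells (3 genes, 67.0 to 67.6 against 7.40 to 12.3 RPKM), dendritic cells (4 genes, 9.05 to 10.9 against 1.72 to 2.14 RPKM) and CD8 T cells (2 genes, 12.4 to 12.7 against 7.44 to 11.9 RPKM). No marker of these lists was at 0 in a whole group. The sums of 6 regulatory T cell genes, of which Il2ra and Ctla4 are also known to be induced by activation, went from 123 to 131 RPKM at rest to 294 to 413 RPKM at 24 h, while Foxp3 itself was at 22.2 and 23.2 RPKM at rest and 9.47 to 24.8 RPKM at 24 h. The part of these cells in the results below was not tested, and in bulk RNA fewer cells of a type and less RNA per cell cannot be told apart. In their labels the resting libraries have a different tag from the cultures, and preparation and activation thus cannot be told apart. Nothing says that the 2 resting libraries came from separate animals, and each time point and condition was sequenced once. The p-values thus measure the spread between these libraries, which may be technical. In the tests against rest, the Th0, Th1 and Th2 cultures of an hour were its libraries. The spread there also includes the differences between conditions.

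At rest, the members spanned from under 1 to over 100 RPKM. Cd27 was highest (153 ± 5.25 RPKM, SD, n = 2), followed by Cd40lg (62.1 ± 2.96 RPKM), Tnfrsf18 (43.9 ± 0.179 RPKM) and Tnfrsf25 (34.4 ± 2.11 RPKM). Tnfrsf1a (29.01 ± 3.02 RPKM), Tnfrsf1b (28.2 ± 2.55 RPKM) and Tnfrsf4 (27.0 ± 2.78 RPKM) overlapped their neighbours in this order. Fas (20.7 ± 0.798 RPKM) and Tnfrsf9 (18.7 ± 0.958 RPKM) were lower, and Tnfrsf8 was the lowest, at 0.673 ± 0.161 RPKM. At 24 h the order was another one: Tnfrsf4 (312 ± 28.2 RPKM, SD, n = 3 conditions), Tnfrsf18 (194 ± 10.3 RPKM), Tnfrsf9 (154 ± 20.8 RPKM), Cd27 (110 ± 16.0 RPKM) and Cd40lg (59.3 ± 5.92 RPKM) did not overlap each other, and Tnfrsf1b, Fas, Tnfrsf25 and Tnfrsf1a followed with overlapping neighbours at 40.3 ± 10.9, 26.6 ± 1.89, 23.6 ± 5.51 and 15.3 ± 4.44 RPKM. RPKM is scaled by length, but the deposited gene values add up annotated transcripts, so levels of genes with unequal numbers of transcripts are set side by side here only as a description.

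**Figure D1:**
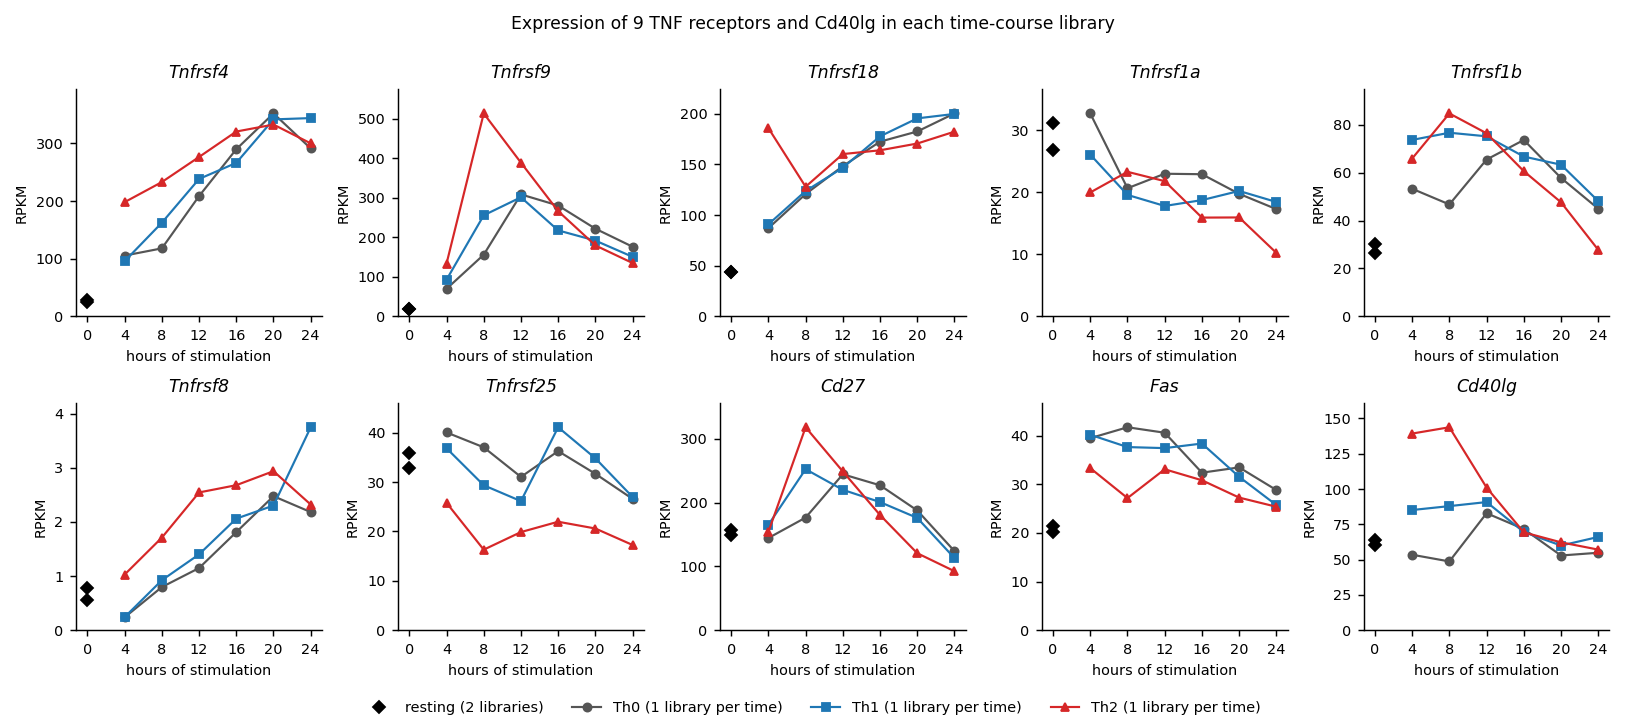
Expression in RPKM (linear axis from 0) of the 10 members against hours of stimulation; each point is 1 library, with the 2 resting libraries at 0 h and lines joining the Th0, Th1 and Th2 cultures. All 18 cultures lie above both resting libraries for Tnfrsf4, Tnfrsf9, Tnfrsf18 and Fas, and the Th2 points of Cd40lg stand at 139 and 144 RPKM at 4 and 8 h.

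Tnfrsf4, Tnfrsf9 and Tnfrsf18, the costimulatory receptors OX40, 4-1BB and GITR, rose in every condition and followed different courses. Tnfrsf4 stood at 24.996 and 28.9 RPKM at rest. In Th0 it measured 105, 118, 209, 290, 352 and 291 RPKM from 4 to 24 h, in Th1 95.7, 162, 238, 266, 342 and 344 RPKM, and in Th2 198, 233, 277, 321, 333 and 300 RPKM. All 18 cultures were above both resting libraries, and in each condition the lowest value was at 4 h. Its log2 change from rest was 2.21 ± 0.26 (SE) at 4 h (limma, adjusted p = 1.06e-05), 3.65 ± 0.26 at 20 h (adjusted p = 7.36e-09) and 3.51 ± 0.26 at 24 h (adjusted p = 1.17e-08), and it rose further between 4 and 24 h (1.30 ± 0.24, adjusted p = 0.00016).

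Tnfrsf9 peaked earlier. It was at 18.02 and 19.4 RPKM at rest and measured 69.6, 156, 309, 281, 222 and 176 RPKM in Th0 and 92.6, 256, 302, 218, 192 and 151 RPKM in Th1, with the peak at 12 h in both. In Th2 the peak came at 8 h, with 133, 514, 389, 266, 180 and 135 RPKM from 4 to 24 h. The Th2 library at 8 h was the highest value of any member in the time course, 27.5 times the resting mean. The log2 change from rest was 2.32 ± 0.34 at 4 h (limma, adjusted p = 7.67e-05), 4.11 ± 0.34 at 12 h (adjusted p = 4.25e-08) and 3.001 ± 0.34 at 24 h (adjusted p = 1.53e-06).

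Tnfrsf18 rose to a smaller extent, from 43.7 and 44.0 RPKM at rest. It measured 87.0, 121, 148, 173, 183 and 200 RPKM in Th0 and 90.8, 124, 147, 178, 196 and 200 RPKM in Th1, higher at each time point than at the one before. The Th2 culture started at 186 RPKM at 4 h, fell to 128 RPKM at 8 h and then reached 160, 164, 171 and 182 RPKM. Only the 4-h library of Th2 stood apart from the other conditions. The log2 change from rest was 1.36 ± 0.21 at 4 h (limma, adjusted p = 0.00013) and 2.13 ± 0.21 at 24 h (adjusted p = 3.71e-07).

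Tnfrsf8, the gene of CD30, was the lowest member and rose late. The resting libraries had 0.559 and 0.787 RPKM (37 and 62 reads). At 4 h Th0 and Th1 were below both, at 0.237 and 0.240 RPKM (19 and 18 reads), while Th2 was above both, at 1.03 RPKM (68 reads). From 8 to 24 h Th0 measured 0.796, 1.15, 1.81, 2.48 and 2.18 RPKM, Th1 0.923, 1.40, 2.06, 2.30 and 3.75 RPKM, and Th2 1.71, 2.55, 2.68, 2.94 and 2.32 RPKM. From 8 h on all 3 conditions were above both resting libraries, though Th0 at 8 h only just (0.796 against 0.787 RPKM). The highest value was that of Th1 at 24 h. The log2 change was −0.31 ± 0.33 at 4 h (limma, adjusted p = 0.512), 1.19 ± 0.33 at 16 h (adjusted p = 0.00562) and 1.45 ± 0.33 at 24 h (adjusted p = 0.00117), on a scale that understates the change of so low a gene, and between 4 and 24 h it rose by 1.76 ± 0.30 (adjusted p = 7.98e-05). The call at 16 h was lost with a pseudocount of 1 and without resting replicate 1.

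Relative to rest, the changes of the 2 TNF receptor genes had opposite signs. Within the cultures both fell from 4 to 24 h, each by under 2-fold. The log2 change was −0.69 ± 0.22 for Tnfrsf1b (limma, adjusted p = 0.00942) and −0.77 ± 0.21 for Tnfrsf1a (adjusted p = 0.00371). Tnfrsf1b, the gene of the TNF receptor without a death domain, had 26.4 and 30.04 RPKM at rest. From 4 to 24 h it measured 53.2, 46.7, 65.5, 73.6, 57.8 and 44.9 RPKM in Th0, 73.6, 76.6, 75.1, 66.7, 63.3 and 48.1 RPKM in Th1 and 65.9, 84.7, 76.4, 60.6, 47.6 and 27.8 RPKM in Th2. All cultures up to 20 h were above both resting libraries. At 24 h the Th2 library lay between the resting ones. Its log2 change was 1.16 ± 0.24 at 4 h (limma, adjusted p = 0.00146), 1.34 ± 0.24 at 12 h (adjusted p = 0.00017), 0.97 ± 0.24 at 20 h (adjusted p = 0.00219), under 2-fold, and 0.47 ± 0.24 at 24 h (adjusted p = 0.0975). Tnfrsf1a had 26.9 and 31.1 RPKM at rest and 10.2 to 18.4 RPKM at 24 h, lowest in Th2, and the groups did not overlap. Its log2 change at 24 h was −0.94 ± 0.23 (limma, adjusted p = 0.00212), under 2-fold, and it passed 2-fold without the Th0 cultures, without the Th1 cultures or without resting replicate 1 (−1.04 in the last case). Macrophage markers, of a cell type known to express Tnfrsf1a and Tnfrsf1b, summed to 449 to 469 RPKM at rest. They were at 40.6 to 68.9 RPKM at 4 h and 6.89 to 10.5 RPKM at 24 h. The log2 change of Tnfrsf1a at 4 h was −0.16 ± 0.23 (limma, adjusted p = 0.628). The part of macrophages in the changes of these genes was not tested.

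Fas, the death receptor bound by Fas ligand, was above both resting libraries (20.2 and 21.3 RPKM) in all 18 cultures, at 33.3 to 40.2 RPKM at 4 h and 25.4 to 28.8 RPKM at 24 h. The log2 change was 0.84 ± 0.16 at 4 h (limma, adjusted p = 0.000771) and 0.82 ± 0.16 at 12 h (adjusted p = 0.000378), both under 2-fold, and 0.35 ± 0.16 at 24 h (adjusted p = 0.0647). Cd27 had 149 and 157 RPKM at rest, 177 to 318 RPKM at 8 h and 92.4 to 124 RPKM at 24 h, so that it was above rest at 8 h and below it at 24 h in all 3 conditions. Its log2 change was 0.66 ± 0.21 at 8 h (adjusted p = 0.0151), under 2-fold, and −0.48 ± 0.21 at 24 h (adjusted p = 0.0523). Tnfrsf25, whose product DR3 binds TL1A, had 32.9 and 35.9 RPKM at rest and 17.3 to 27.0 RPKM at 24 h; its log2 change there was −0.56 ± 0.34 (adjusted p = 0.151). Cd40lg had 60.04 and 64.2 RPKM at rest and 54.8 to 66.0 RPKM at 24 h, with a log2 change of −0.07 ± 0.34 (adjusted p = 0.869).

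**Figure D2:**
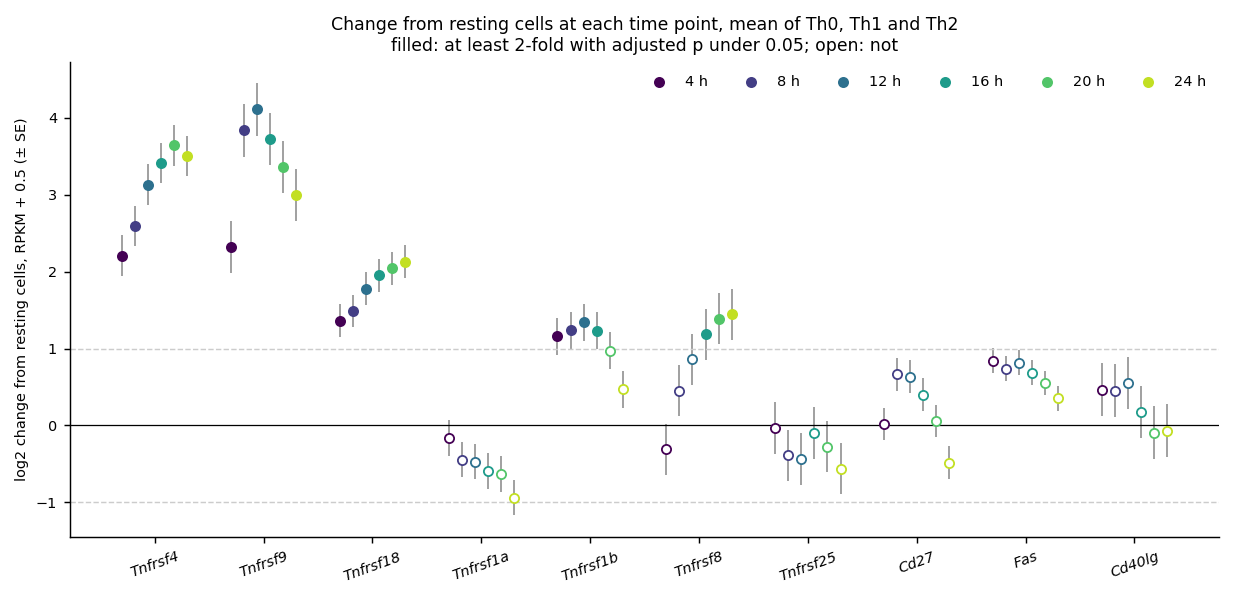
Change from resting cells on the log2(RPKM + 0.5) scale with its SE, for each member at 6 time points, averaged over Th0, Th1 and Th2 (limma, 2 resting libraries and 3 cultures a time point). Filled points changed at least 2-fold with an adjusted p under 0.05: at 24 h these are Tnfrsf4 (3.51), Tnfrsf9 (3.001), Tnfrsf18 (2.13) and Tnfrsf8 (1.45), and no point is filled below 0.

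Counted together, 4 of the 10 members rose at 4 h (Tnfrsf4, Tnfrsf9, Tnfrsf18 and Tnfrsf1b), where 2.61% of all 10897 genes tested rose, and none fell, where 7.97% fell. The remaining 6 had log2 changes between −0.31 and 0.84 at 4 h. The same 4 rose at 8 h (6.42% of all genes) and at 12 h (10.7%). With Tnfrsf8 they were 5 at 16 h (11.2%). At 20 h 4 rose (Tnfrsf4, Tnfrsf9, Tnfrsf18 and Tnfrsf8; 12.9%), and these 4 also at 24 h (12.7%), where none fell (17.4%); 7 of the 10 members had an unadjusted p under 0.05 at 24 h, as had 7468 of all 10897 genes (limma). From 4 to 24 h, 2 members rose (Tnfrsf4 and Tnfrsf8; 13.0%). The median log2 change of the members was 0.65 at 4 h and 0.41 at 24 h, beside −0.04 at both times over all genes tested. At 24 h quantile normalization moved the median of all genes to 0.13, and 4 members were then still called.

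The conditions were compared over the 6 time points, which asks how the skewing cytokines and antibodies bear on these receptors. With a single library per condition and time point, the time points stood in for replicates of a condition. They are cultures of pooled cells and not independent replicates. Tnfrsf25 was the member that differed most: its expression was lower in Th2 than in Th0 and in Th1 at all 6 time points. It measured 25.8, 16.3, 19.9, 22.0, 20.6 and 17.3 RPKM in Th2 from 4 to 24 h, against 40.1, 37.1, 31.1, 36.3, 31.7 and 26.6 RPKM in Th0 and 36.9, 29.4, 26.2, 41.1, 34.8 and 27.0 RPKM in Th1. The Th2 libraries did not overlap those of either other condition. The log2 difference was −0.72 ± 0.09 from Th0 (limma, adjusted p = 1.95e-05) and −0.66 ± 0.09 from Th1 (adjusted p = 5.47e-05), both under 2-fold. Fas was likewise lower in Th2 at 6 of 6 time points, by less: −0.28 ± 0.07 against Th0 (adjusted p = 0.0112) and −0.24 ± 0.07 against Th1 (adjusted p = 0.0444). Foxp3, 1 of the 6 regulatory T cell genes, fell in Th2 from 37.3 RPKM at 4 h to 9.47 RPKM at 24 h, against 38.4 to 20.7 RPKM in Th0. The 6 genes summed were higher in Th2 than in Th0 at 4 h (262 against 167 RPKM) and lower at 24 h (294 against 372 RPKM). The part of regulatory T cells in these differences was not tested.

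Against Th0, Th2 was also lower for Tnfrsf1a (−0.36 ± 0.12, adjusted p = 0.0379, lower at 5 of 6 time points) and higher for Cd40lg (0.58 ± 0.17, adjusted p = 0.0208, higher at 5 of 6), Tnfrsf8 (0.57 ± 0.16, adjusted p = 0.0152, higher at 6 of 6) and Tnfrsf4 (0.40 ± 0.14, adjusted p = 0.0384, higher at 5 of 6). Tnfrsf9 did not pass (0.37 ± 0.20, adjusted p = 0.17), and the other 3 members had differences between −0.07 and 0.16. No member reached 2-fold between Th2 and Th0, where 2.01% of 10737 genes did, nor between Th2 and Th1 (1.96%) or Th1 and Th0 (0.494%). Of any size, 6 of 10 members had an adjusted p under 0.05 for Th2 against Th0, beside 29.6% of all genes, and 2 of 10 for Th2 against Th1, beside 12.2%; for Th1 against Th0 none had (limma), with 0 at an unadjusted p under 0.05. The count of 6 was 3 without 4 h, 3 without 8 h, 2 over 12 to 24 h alone, 3 with no filter on low genes and 2 with only Th2 and Th0 fitted.

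Cd40lg was among the members with a large early difference. It measured 139, 144, 101, 69.3, 62.2 and 57.1 RPKM in Th2. In Th1 the values were 85.1, 87.9, 90.8, 69.5, 59.9 and 66.0 RPKM, and in Th0 53.4, 48.7, 82.9, 71.7, 52.9 and 54.8 RPKM. At 4 h and 8 h the conditions stood in the order Th2, Th1, Th0, and at 16 h they lay together, between 69.3 and 71.7 RPKM. Relative to Th0, Th2 stood at a ratio of 2.61 (95% interval 2.46 to 2.77) at 4 h, from 3421 and 1627 reads, 2.95 (2.78 to 3.14) at 8 h, 1.22 (1.15 to 1.29) at 12 h and 0.967 (0.911 to 1.03) at 16 h. That of Th1 to Th0 was 1.59 (1.49 to 1.70) at 4 h and 1.81 (1.70 to 1.92) at 8 h. These intervals cover counting error only and compare single libraries. Tnfrsf8 in Th2 was 4.34 (2.58 to 7.64) times Th0 at 4 h, 2.15 (1.57 to 2.95) at 8 h and 1.06 (0.869 to 1.30) at 24 h, where Th2 was below Th1 (0.619, 0.517 to 0.739).

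Whether the gap between conditions changed with time was tested as such. The difference between Th2 and Th0 fell with time for 4 of the 10 members, beside 3.21% of all genes: the slopes were −0.093 ± 0.017 log2 per hour for Tnfrsf9 (limma, adjusted p = 0.0101), −0.078 ± 0.016 for Cd40lg (adjusted p = 0.0151), −0.063 ± 0.014 for Tnfrsf1b (adjusted p = 0.0204) and −0.055 ± 0.012 for Tnfrsf4 (adjusted p = 0.0196). For each of them Th2 was above Th0 at 4 and 8 h; at 24 h Tnfrsf9 and Tnfrsf1b were below Th0 in Th2 (135 against 176 RPKM and 27.8 against 44.9 RPKM). Tnfrsf18 (−0.049 ± 0.014, adjusted p = 0.053), Tnfrsf8 (−0.050 ± 0.016, adjusted p = 0.082) and Cd27 (−0.053 ± 0.015, adjusted p = 0.0613) did not pass, and the slopes of Fas, Tnfrsf25 and Tnfrsf1a were between −0.014 and 0.012. Tnfrsf4 alone fell in the same way for Th2 against Th1 (limma, −0.056 ± 0.012, adjusted p = 0.0399, beside 0.689% of all genes). None was called for Th1 against Th0, beside 0.0279% of all genes called. At an unadjusted p under 0.05 (limma) it was 1 of 10 members, a looser threshold that the 0.0279% does not match. These contrasts share the Th2 or Th0 cultures. In Th2 against Th0, 7, 8 and 7 of the 10 members were higher at 4, 8 and 12 h and 2, 2 and 3 at 16, 20 and 24 h, with a median member difference of 0.81 at 8 h and −0.28 at 24 h beside medians of 0.00080 and −0.08 over all genes. Without 20 h none of the 4 calls for Th2 against Th0 remained (adjusted p 0.0684 to 0.107), without 24 h 2 of the 10 members were called, and without 8 h 3. The call of Tnfrsf4 against Th1 was lost in 9 of 14 alternatives: without 4, 12, 16, 20 or 24 h (the highest adjusted p being 0.171), with median-of-ratios or upper-quartile scaling, with no filter and with no intensity trend.

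The libraries at 4 h also differed in other cells: the red cell genes summed to 11608 RPKM in Th2, 8904 RPKM in Th0 and 7423 RPKM in Th1, and the macrophage genes, in the same order, to 68.9, 49.4 and 40.6 RPKM. At 8 h Th2 was the lowest of the 3 in both lists (3736 against 6920 RPKM in Th0 for red cells, 18.9 against 28.5 RPKM for macrophages). Of the 6 regulatory T cell genes 2, Il2ra and Foxp3, were called in the same test as the members, beside 3.21% of all genes. For these the difference between Th2 and Th0 fell with time. Il2ra, which activation also induces, had 118 RPKM in Th2 against 50.5 RPKM in Th0 at 4 h, 212 against 97.8 RPKM at 8 h and 192 against 256 RPKM at 24 h. The part of these cells in the differences between conditions was not tested.

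**Figure D3:**
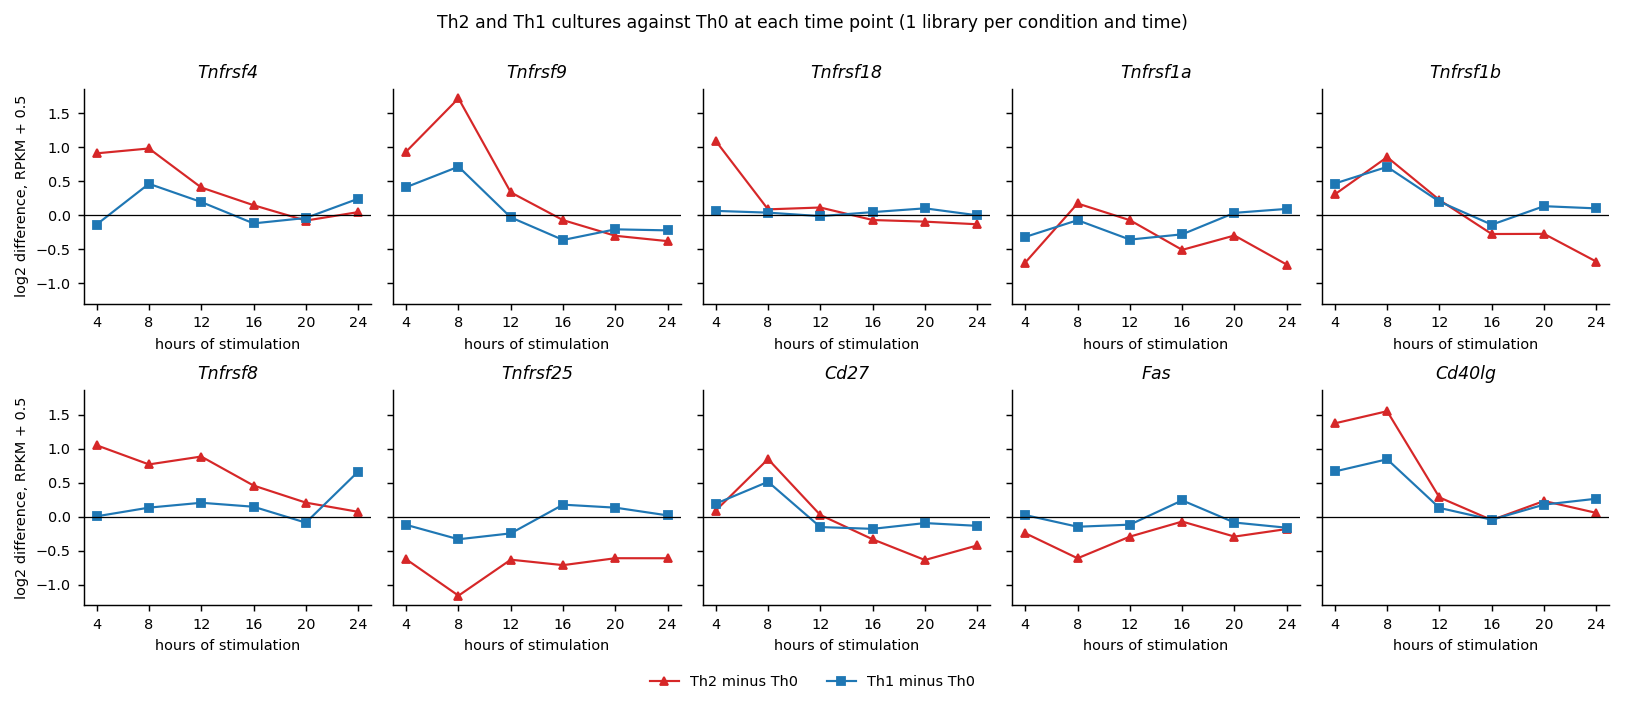
Difference of the Th2 culture (red triangles) and of the Th1 culture (blue squares) from the Th0 culture of the same hour, in log2(RPKM + 0.5), for each member against hours of stimulation, with 1 library per point. Tnfrsf25 stays below 0 in Th2 at every time point, whereas Tnfrsf9, Cd40lg and Tnfrsf4 are farthest above 0 at 8 h, at 1.72, 1.55 and 0.98.

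Actinomycin stops new transcription, so a message that decays faster than the others loses its share of the RNA that is left. Because RPKM is such a share, a slope is relative to the other messages. The median slope of 10571 genes was 0.0022 log2 per hour. Cd40lg fell the most of the members: 17.8, 14.6, 6.49 and 7.13 RPKM at 0, 1, 2 and 4 h, from 574, 383, 152 and 161 reads. The value at 4 h was 0.400 of that at 0 h (95% interval 0.334 to 0.477), while 4 h and 2 h did not differ beyond counting error (1.10, 0.875 to 1.38). The slope was −0.34 ± 0.07 log2 per hour (limma, adjusted p = 8.09e-05), and the exact permutation of the 4 time points, two-sided, gave p = 0.167. Without the 0 h library the adjusted p was 0.104, and with no filter on low genes it was 0.0883.

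Tnfrsf25 moved the other way, with 19.4, 20.1, 27.9 and 43.7 RPKM, higher at each hour than before. Its slope was 0.31 ± 0.06 log2 per hour (limma, adjusted p = 2.38e-05), and the exact permutation test gave p = 0.0417, the smallest that 4 time points allow. Without the 4 h library the slope was 0.26 with an adjusted p of 0.253. Tnfrsf1a went from 10.3 to 6.20 RPKM, a slope of −0.20 ± 0.07 (adjusted p = 0.0318) that stays under 2-fold over 4 h. Tnfrsf4 went from 311 to 243 RPKM (−0.10 ± 0.06, adjusted p = 0.207) and Fas from 35.6 to 30.4 RPKM (−0.05 ± 0.06, adjusted p = 0.564). The exact permutation test gave p = 0.0417, again the smallest possible, for Fas, whose value was lower at each hour than before, p = 0.125 for Tnfrsf4 and p = 0.167 for Tnfrsf1a. The slopes of the other 5 members lay between −0.03 and 0.08; Tnfrsf1b, for example, had 65.0 RPKM at both 0 and 4 h. So 1 of 10 members was called as falling, beside 5.58% of all genes, and 1 as rising, beside 3.97%.

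The library at 0 h of this series had been stimulated for 16 h and can be set beside the 3 cultures at 16 h. For 5 members it lay within the range of those cultures, with Tnfrsf4, Tnfrsf9, Tnfrsf1b, Tnfrsf8 and Fas at 0.971 to 1.16 times their mean, and Tnfrsf18 was at 1.22 times, above all 3. Cd27 (0.807), Tnfrsf25 (0.587) and Tnfrsf1a (0.536) were below all 3. Cd40lg stood far apart, with 17.8 RPKM against 69.3 to 71.7 RPKM, a ratio of 0.249 (95% interval 0.227 to 0.273) to the Th0 culture, and it was below all 20 libraries of the time course, whose lowest had 48.7 RPKM. Of 10564 genes, 153 (1.45%) were at least 2-fold below the mean of the 16 h cultures in this library, and 16 were as low as Cd40lg or lower. The summed markers of other cells differed as well. Macrophage genes were at 51.2 RPKM in this library against 8.97 to 24.0 RPKM in the 16 h cultures. Within that list Lyz2 was at 21.5 RPKM or more in each actinomycin library, and no other gene passed 2.48 RPKM there. The macrophage sum of this library thus rests mainly on Lyz2. B cells were at 3.71 against 18.05 to 20.8 RPKM and red cells at 631 against 386 to 535 RPKM. The part of these cells in the ratios to the 16 h cultures was not tested. The comparison sets 1 library against 3 with no test. The labels give that library no skewing condition, so preparation and condition cannot be told apart.

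**Figure D4:**
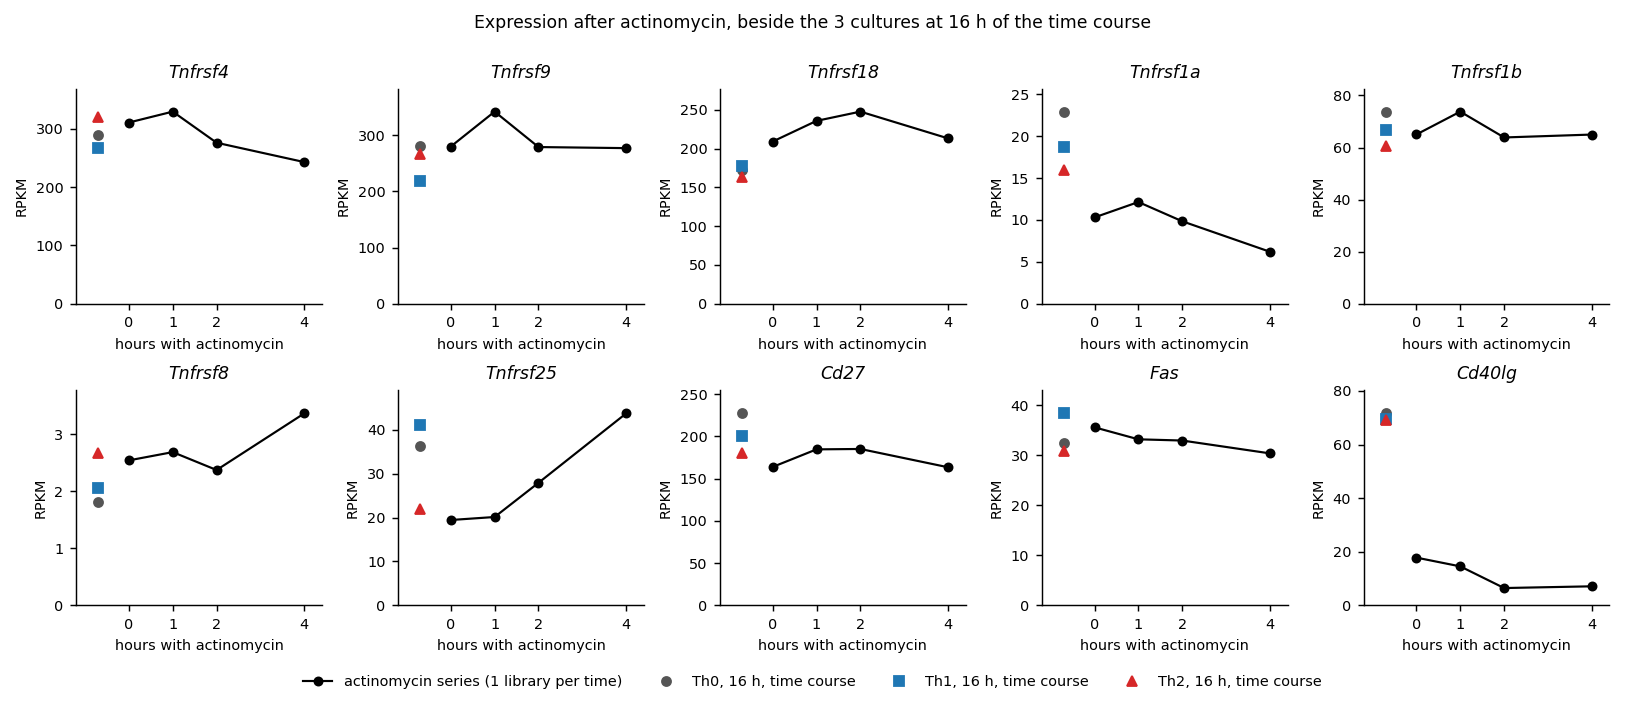
Expression in RPKM (linear axis from 0) of each member after 0, 1, 2 and 4 h with actinomycin (black, 1 library per point), with the Th0, Th1 and Th2 cultures at 16 h of the time course drawn at the left. Cd40lg starts at 17.8 RPKM, well under the 3 cultures, and ends at 7.13 RPKM, whereas Tnfrsf25 climbs from 19.4 to 43.7 RPKM.

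Other genes of the pathway were taken from 3 lists. Of all 10897 genes tested, 2.61% rose and 7.97% fell at 4 h, and 12.7% rose and 17.4% fell at 24 h. Of 19 other receptors of the family 11 passed the filter; 2 rose and 1 fell at 4 h, and 0 rose and 2 fell at 24 h, with a median log2 change of −0.59 at 24 h. Tnfrsf26 (1.98 ± 0.46, adjusted p = 0.00332) and Tnfrsf23 (1.91 ± 0.29, adjusted p = 0.000102) rose at 4 h; their products are close relatives, so that shared reads leave their split uncertain. The rise of Tnfrsf26 was lost without the Th1 cultures. Tnfrsf21 (DR6) fell at 4 h (−2.15 ± 0.28, adjusted p = 2.3e-05), and Tnfrsf14 (HVEM; −1.58 ± 0.28, adjusted p = 0.000114) and Relt (−1.45 ± 0.17, adjusted p = 2.33e-06) fell by 24 h.

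Of 17 ligands 10 passed the filter; 5 rose and 0 fell at 4 h, and 7 rose and 1 fell at 24 h, with a median of 1.49 beside −0.04 over all genes. The largest rises at 4 h were those of Tnf (2.77 ± 0.43, adjusted p = 0.000125), Tnfsf8 (CD30 ligand; 2.01 ± 0.41, adjusted p = 0.00133) and Tnfsf11 (RANK ligand; 1.67 ± 0.48, adjusted p = 0.014). At 24 h they were those of Lta (3.26 ± 0.64, adjusted p = 0.000331), Tnfsf11 (3.09 ± 0.48, adjusted p = 3.86e-05) and Tnf (2.26 ± 0.43, adjusted p = 0.000239), while Ltb fell (−1.01 ± 0.36, adjusted p = 0.0202). The call of Tnfsf11 at 4 h was lost without the Th1 cultures or either resting library, and that of Ltb without the Th2 cultures or either resting library and with median-of-ratios or upper-quartile scaling. Among the ligands known to bind the members, Tnfsf8 reached 183 RPKM in its highest culture and Fasl 37.9 RPKM, Tnfsf4 (OX40 ligand) went from 0.415 and 0.495 RPKM at rest to between 1.49 and 7.23 RPKM, and Tnfsf9 (4-1BB ligand) reached 5.29 RPKM. Cd70, the ligand of CD27, was listed at 0 in both resting libraries and at most at 0.941 RPKM, and Tnfsf18 (GITR ligand) was at most at 0.144 RPKM. Cd40, the receptor of CD40 ligand, had 1.52 and 1.86 RPKM at rest and 2.94 to 6.14 RPKM in the cultures. These ligands and Cd40 were picked for what they bind, after their values were seen.

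All 26 adaptors and signalling genes passed the filter; 1 rose and 1 fell at 4 h, and 1 rose and 2 fell at 24 h. Birc3 (cIAP2) rose at 4 h (1.59 ± 0.18, adjusted p = 5.28e-06). Tnfaip3 (A20), an inhibitor of NF-κB signalling, fell from 317 and 324 RPKM at rest to 112 to 178 RPKM at 4 h (−1.09 ± 0.22, adjusted p = 0.00117) and 38.4 to 42.1 RPKM at 24 h (−2.99 ± 0.22, adjusted p = 8.27e-09). Traf5 fell (−1.14 ± 0.22, adjusted p = 0.000294) and Siva1, whose product binds CD27, rose (1.63 ± 0.30, adjusted p = 0.000181) by 24 h. The call of Tnfaip3 at 4 h was lost without the Th1 cultures, and that of Traf5 without the Th2 cultures.

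Between conditions, Tnfrsf26 was lower in Th2 than in Th0 (−1.09 ± 0.12, adjusted p = 1.13e-05), Tnfsf11 was higher (1.05 ± 0.16, adjusted p = 0.000224), and Lta was lower in Th2 than in Th1 (−1.19 ± 0.30, adjusted p = 0.0134). The difference between Th2 and Th0 fell with time for 3 ligands (limma), beside 3.21% of all genes. They were Lta (−0.143 ± 0.016 log2 per hour, adjusted p = 0.000663), Tnf (−0.129 ± 0.019, adjusted p = 0.0028) and Tnfsf14 (−0.094 ± 0.018, adjusted p = 0.0123). That difference fell for 0 of the 11 other receptors and 0 of the 26 adaptors, counts near the share of all genes. At an unadjusted p under 0.05 (limma) there were 1 and 5 of them, a looser threshold that the 3.21% does not match. The difference between Th2 and Th1 fell for Lta (−0.132 ± 0.016, adjusted p = 0.00139) and Tnf (−0.093 ± 0.019, adjusted p = 0.0285). Leaving out 1 time point ended the calls of Tnfrsf26 (8 h), Tnfsf11 (4 or 8 h), Lta in Th2 against Th1 (16, 20 or 24 h), Tnfsf14 (20 h) and the slope of Tnf against Th1 (4, 16, 20 or 24 h). That of Tnfsf11 was also lost over 12 to 24 h alone, and that of Tnf with no filter and with no intensity trend. After actinomycin, 4 ligands fell with Cd40lg (limma), beside 5.58% of all genes. The steepest of the 4 were Fasl (−0.33 ± 0.07 log2 per hour, adjusted p = 0.000194), Tnfsf4 (−0.32 ± 0.08, adjusted p = 0.0013) and Tnfsf11 (−0.26 ± 0.06, adjusted p = 0.000504). Of the receptors and adaptors, Tnfrsf21 (−0.47 ± 0.10, adjusted p = 0.000268) and Tnfaip3 (−0.50 ± 0.06, adjusted p = 2.21e-11) fell, and Tnfrsf23 rose (0.29 ± 0.10, adjusted p = 0.0195). From 0 to 4 h Tnfaip3 went from 60.2 to 14.4 RPKM. Tnfrsf21 (2.36 to 0.336 RPKM) and Tnfrsf23 (0.886 to 2.82 RPKM) were near the filter at 1 RPKM. The calls of Tnfsf4, Tnfsf11 and Tnfrsf23 were lost without the 0 h or the 4 h library. With no filter those of Tnfsf4 and Tnfrsf23 were lost too, with upper-quartile scaling that of Tnfsf11, and with a pseudocount of 1 or quantile normalization that of Tnfrsf23.

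The members followed different patterns over the 20 libraries of the time course, which share their resting libraries and the course of activation. Pearson's r on log2(RPKM + 0.5) was 0.97 between Tnfrsf4 and Tnfrsf18, neighbours on chromosome 4, 0.85 between Tnfrsf4 and Tnfrsf9 and 0.77 between Tnfrsf9 and Tnfrsf1b. It was 0.07 between Tnfrsf1b and Tnfrsf8, also neighbours, 0.36 between Cd27 and Tnfrsf1a, 112 kb apart, and −0.69 between Tnfrsf18 and Tnfrsf1a. Among the 8478 genes searched, whose mean was 5 RPKM or more, the closest pattern to Tnfrsf4 was that of Noc4l (r = 0.98) and Traf6 (0.98), to Tnfrsf9 that of Ppp2cb (0.98) and Slamf1 (0.98), and to Tnfrsf18 that of Tnfrsf4 (0.97) and Il2 (0.95). The highest values were Endog (0.98) and Coq5 (0.97) for Tnfrsf8, Tgif1 (0.94) and Nfe2l1 (0.94) for Tnfrsf1b, Kmt2b (0.94) and Ikbkb (0.93) for Tnfrsf1a, and Vsir (0.95) and Pou2af1 (0.93) for Cd27. Tnfrsf25 was most like Asb13 (0.92) and Traf3ip3 (0.91) and Fas most like Cd274 (0.90) and Slc39a4 (0.88). Cd40lg had the lowest of these values, with Egr1 (0.83) and Jarid2 (0.81).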

How the data were processed

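The deposited table held RPKM (reads scaled to transcript length and to the mapped reads of a library) for 22009 named genes and 1 unnamed entry. The authors made these values by RNA sequencing; the submitters' processing notes name BWA and GRCm38, and a counter is not given in the sources used here. Read totals were recovered from the RPKM steps: of 1767 genes with a single transcript in GENCODE vM21, 1108 (62.7%) gave the same total within 0.1%. They were between 17512385 and 33017133 mapped reads per library in the time course and between 18052931 and 25735543 in the actinomycin series. Reads were whole for Cd40lg and Tnfrsf8, with conditional binomial 95% intervals for ratios that cover counting error only. For the other 8 members only bounds could be set, with at least 28 reads in every library.

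Changes were tested on log2(RPKM + 0.5) with limma 3.58.1 under R 4.3.3, the prior variance following a trend in intensity, and p-values were adjusted by Benjamini-Hochberg over every gene averaging 1 RPKM or more. A change was called at an adjusted p under 0.05 and at least 2-fold. Fold changes on this scale understate those of low genes. The fits and the recovery of read totals were tested on simulated data. The members and lists were chosen with earlier results of these data known. All 10 members are named, with up to 3 genes per direction and list in each comparison and, for each member, the 2 genes of most similar pattern. Alternatives were a pseudocount of 0.1 or 1, a filter at 5 RPKM or none, 3 other scalings, no intensity trend, condition as a covariate, fewer libraries and leaving out each resting library, condition, time point or actinomycin library in turn. Promoters came from RefSeq (GRCm38.p6) and gene positions from GENCODE vM21. Scripts ran under Python 3.11.15 (pandas 2.3.3, scipy 1.17.1, numpy 2.4.6).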

Additional observations from a re-analysis of the deposited data

Results flagged for a closer look

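For 4 members the difference between Th2 and Th0 cultures changed with time by the test of the interaction itself. The slopes of the difference were −0.093 log2 per hour for Tnfrsf9, −0.078 for Cd40lg, −0.063 for Tnfrsf1b and −0.055 for Tnfrsf4. For Tnfrsf4 the difference between Th2 and Th1 changed as well, by −0.056 log2 per hour, a call that was lost in 9 of 14 alternatives. No member stood above rest at all 6 time points in one condition and below it at all 6 in another.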

How the results depend on the processing

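The 4 members called at 4 h were called under all 15 alternatives, and the count at 24 h was between 3 and 5. Of 1422 alternative values of single genes, 1345 had the direction and call of the reported value, 61 lost the call, 14 gained one and 2 reversed: Cd40lg at 24 h with median-of-ratios scaling (0.072) and Tnfrsf9 in Th2 against Th0 over 12 to 24 h (−0.11). The number of members with an adjusted p under 0.05 for Th2 against Th0 was 3 with no filter, 2 over 12 to 24 h and 2 with only those conditions fitted, and between 3 and 5 when each time point was left out. For Th2 against Th1 it was 1 with median-of-ratios, upper-quartile or quantile scaling, with no intensity trend, over 12 to 24 h and with only those conditions fitted, and between 1 and 3 when each time point was left out. Members whose difference between Th2 and Th0 changed with time were 1 with no filter and between 0 and 6 when each time point was left out. Members called after actinomycin were 1 with no filter and 1 or 2 when each library was left out. The cause of these changes was not tested. No paired analysis was possible because only the resting libraries carry replicate numbers that could form a block; the conditions were instead matched by hour, with time point as a term of the fit. Each condition at a time point and each actinomycin step had 1 library.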
